A study of Homo sapiens with 10 samples.

Results

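BST2, the 3 interferon-induced transmembrane genes IFITM1, IFITM2 and IFITM3, and the major histocompatibility complex (MHC) class I genes B2M, HLA-B, HLA-C and HLA-E were followed through 4 knockdowns in human pluripotent cells. They are 8 of the 13808 gene rows, in a table of 14785 rows, and all 8 were found. They were chosen by name from earlier results of the same table, so their levels, their differences between groups and their number among the calls of a fit over all rows are descriptions and support nothing. The cells were of the H1 line, an established human embryonic stem cell line that the labels give as wild type in every group. The 5 groups received short hairpin RNAs (shRNAs) by packaged virus followed by puromycin: shSMARCA4, shMAFK, shE2F6 and shKDM1A against those genes, and shLUC against luciferase as the control that also went through infection and selection. Total RNA was sequenced in bulk, with 2 libraries in each group, which the design text calls biological duplicates, and no label ties a replicate number to a shared culture or day. No library without virus or puromycin was part of the comparison, and every group had the same 1 cell line.

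Interferons are secreted by cells that sense viral nucleic acid. They act through receptors, JAK kinases and STAT and IRF transcription factors on a broad set of target genes. BST2 (tetherin) holds budding enveloped virus at the cell surface, and the IFITM proteins sit in plasma and endosomal membranes and hinder fusion of viral with cellular membranes. B2M is the invariant light chain of MHC class I, HLA-B and HLA-C are heavy chains that show peptides to T cells and natural killer cells, and HLA-E presents leader peptides of other class I chains to natural killer cell receptors. Pluripotent stem cells are known for a weak interferon response, for high IFITM levels without added interferon and for low MHC class I at the surface.

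Regulatory sequence near the start sites is shown because these genes are known to respond to interferon. RefSeq promoter windows of GRCh38.p14, which run from 250 bases before to 50 bases after the start, were matched by symbol for 6 of the 8 genes (IFITM2 and HLA-E were the others). The element that binds interferon-activated STAT and IRF factors, the interferon-stimulated response element (ISRE), was searched on both strands as GAAA, any 2 bases, then GAAA. That pair occurred in 3.57% of all 35116 promoter windows of the same length. It was matched at 2 places each in the windows of BST2, IFITM1, IFITM3 and B2M, and at 0 places in those of HLA-B and HLA-C. Only this exact pattern was counted, so 0 places does not show that a promoter lacks an ISRE of another form. In the stretches below, read 5′ to 3′ on the gene's strand, capitals mark the ISRE pairs. They lie at chr19:17405730-17405775 on the minus strand for BST2, chr11:313985-314058 on the plus strand for IFITM1, chr11:320871-320927 on the minus strand for IFITM3 and chr15:44711358-44711403 on the plus strand for B2M.
BST2: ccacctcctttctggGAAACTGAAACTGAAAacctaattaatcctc
IFITM1: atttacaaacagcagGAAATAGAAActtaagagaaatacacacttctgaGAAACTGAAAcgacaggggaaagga
IFITM3: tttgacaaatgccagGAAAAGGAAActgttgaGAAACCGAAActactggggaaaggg
B2M: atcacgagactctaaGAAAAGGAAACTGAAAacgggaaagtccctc

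In BST2 and B2M the pair of matches shares its middle GAAA, so that 3 repeats stand in a row, starting 130 and 144 bases before the start. In IFITM1 and IFITM3 the matches are separate. The palindromic element TTCNNNGAA (the gamma-activated site, GAS) occurred in 7.66% of all windows. It was found at 2 positions in BST2 and 1 position in IFITM1, and 1 of those in BST2 and the 1 in IFITM1 overlap an ISRE match. The NF-kB element GGGANTNCC occurred in 4.35% of windows and, of the 6 genes, in HLA-B. The HLA-B stretch at chr6:31357332-31357370 and its nearest counterpart in HLA-C at chr6:31272241-31272279, both on the minus strand, are shown because the heavy chains differ there. In HLA-B the capitals mark the NF-kB match, and in HLA-C they mark the bases that differ from HLA-B.
HLA-B: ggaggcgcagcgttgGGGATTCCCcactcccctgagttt
HLA-C: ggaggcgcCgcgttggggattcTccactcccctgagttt

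Counted from 1 at the 5′ end of the 39 bases shown, and with the HLA-B base first, the 2 differences are A9C and C23T, and the latter lies within the NF-kB match. CCAAT, the fourth sequence searched, occurred in 34.6% of windows and in 5 of the 6 genes, with IFITM3 as the exception. These matches describe the reference sequence, and binding at them was not measured.

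The values are the authors' normalized tag counts. The libraries shared a median of 594 and totals between 22836548 and 22855295, so read depth is unknown and no counting interval can be given. SMARCA4 stood at 12.7% of its shLUC mean in shSMARCA4, and KDM1A, E2F6 and MAFK stood at 42.1%, 61.3% and 59.6% in their own knockdowns. MAFK was 82 and 216 in the shMAFK libraries against 212 and 288 in shLUC, so the second shMAFK library overlapped the control. All 10 markers of pluripotent cells were measured, with summed levels from 148897 to 273878 across libraries. The highest sum was that of shKDM1A replicate 1, where POU5F1 stood at 148866, against 16615 to 51684 in the other libraries. Over all rows the SD between paired libraries of a group was 0.53 log2 units in shKDM1A and between 0.264 and 0.335 in the other groups. The shKDM1A libraries stood apart from each other in this way, and values that rest on 1 of them are given with and without it.

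In shSMARCA4, 7 of the 8 genes were lower than in shLUC in both libraries, and HLA-E was not; of all rows, 51.0% had groups that did not overlap in that comparison. BST2 stood at 15.3% of the control mean, the 3 IFITM genes at 37.8% to 50.2%, B2M at 39.9%, HLA-B at 41.1% and HLA-C at 55.7%. In shMAFK, shE2F6 and shKDM1A, 5, 3 and 2 of the 8 did not overlap the control, beside 49.1%, 40.7% and 38.8% of all rows. BST2 was furthest from its control level in each of them, at 54.1% in shE2F6, 195% in shMAFK and 264% in shKDM1A. Because bulk RNA was measured, fewer cells that make a transcript and less of it per cell cannot be told apart.

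**Figure D1:**
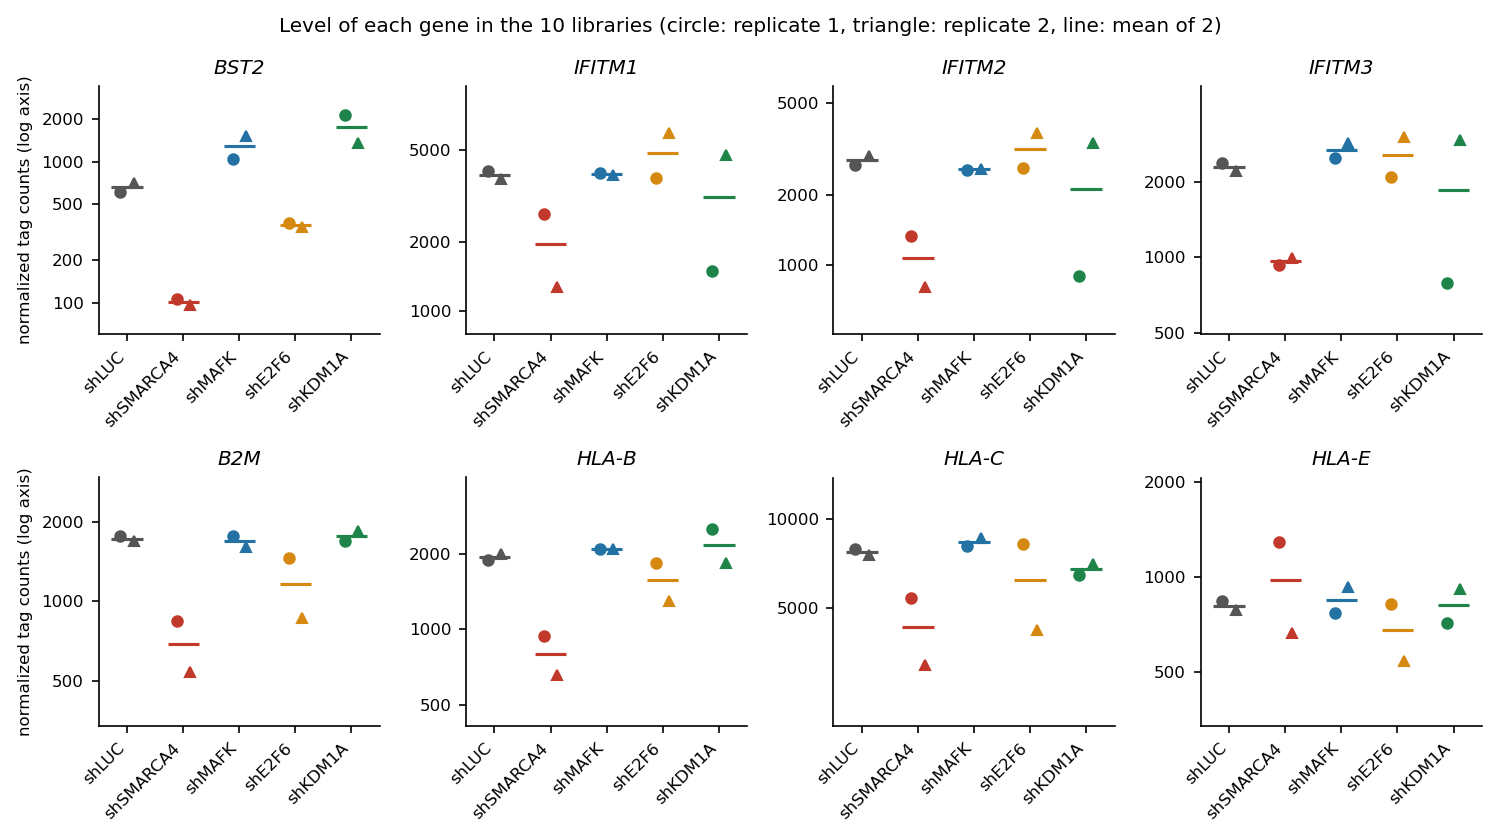
Normalized tag counts of the 8 genes (vertical log axes, 1 panel per gene) in the 10 libraries of the 5 groups. Circles are replicate 1, triangles replicate 2 and lines the mean of both; the shSMARCA4 points lie below both shLUC points in every panel except HLA-E.

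BST2 lies on chromosome 19 (17402939 to 17405648, minus strand, GRCh38, GENCODE release 29). It had 614 and 710 normalized tag counts in the shLUC libraries and 106 and 96 in the shSMARCA4 libraries. The shE2F6 libraries had 370 and 346, the shMAFK libraries 1050 and 1526, and the shKDM1A libraries 2147 and 1349. Every knockdown library thus lay outside the control range, below it in shSMARCA4 and shE2F6 and above it in shMAFK and shKDM1A. From lowest to highest the groups ran shSMARCA4, shE2F6, shLUC, shMAFK and shKDM1A, and of neighbours in that order shMAFK and shKDM1A overlapped. The group means were 101.0 ± 7.07, 358.0 ± 17.0, 662.0 ± 67.9, 1288 ± 337 and 1748 ± 564 (SD, n = 2 each). On the log2(value + 1) scale the difference from shLUC was -2.70 (SE 0.25) in shSMARCA4, -0.88 in shE2F6, 0.94 in shMAFK and 1.36 in shKDM1A, with the same SE. In shKDM1A it was 1.03 without replicate 1 and 1.70 without replicate 2. Against the mean of the other 3 knockdowns, a comparison without the control libraries, the log2 difference of BST2 in shSMARCA4 was -3.17.

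IFITM1, IFITM2 and IFITM3 form a cluster on chromosome 11, at 313506 to 315272 and 307631 to 315272 on the plus strand and 319669 to 327537 on the minus strand. IFITM1 had 4065 and 3755 normalized tag counts in shLUC and 2650 and 1272 in shSMARCA4. IFITM2 had 2712 and 2967 in shLUC and 1340 and 806 in shSMARCA4. IFITM3 had 2374 and 2208 in shLUC and 934 and 995 in shSMARCA4. Both shSMARCA4 libraries were below both controls for each gene, and the shSMARCA4 libraries were closest to each other for IFITM3 (0.09 on the log2 scale). The log2 differences were -1.09 (SE 0.51) for IFITM1, -1.45 (SE 0.51) for IFITM2 and -1.25 (SE 0.48) for IFITM3. Each SE takes in the spread of all 5 groups, including shKDM1A, whose libraries split for these genes, and not of the compared libraries alone. For IFITM1 the size depended on the library, at -1.62 without shSMARCA4 replicate 1 and -0.56 without replicate 2.

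The shMAFK values of the IFITM genes were close to control. IFITM1 had 3966 and 3901, IFITM2 had 2576 and 2594, and IFITM3 had 2494 and 2870. IFITM2 was slightly below and IFITM3 slightly above both controls, with log2 differences of -0.13 and 0.22. In shE2F6 the IFITM genes had a higher second library: 3780 and 5923 for IFITM1, 2618 and 3698 for IFITM2, and 2098 and 3026 for IFITM3. Each of these pairs overlapped the control range, and the log2 differences of 0.28, 0.13 and 0.14 were below their SE.

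In shKDM1A the libraries split for all 3 IFITM genes. IFITM1 had 1490 and 4748, IFITM2 894 and 3348, and IFITM3 789 and 2934. Replicate 1 was below both controls and replicate 2 above both, so the groups overlapped, and the log2 differences between replicates were 1.67, 1.90 and 1.89. The difference from shLUC was -0.55, -0.71 and -0.59 with both libraries. It was 0.28, 0.24 and 0.36 without replicate 1 and -1.39, -1.66 and -1.54 without replicate 2, so 1 library set its sign. BST2 did not share this split, since its shKDM1A replicate 1 was the higher library.

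**Figure D2:**
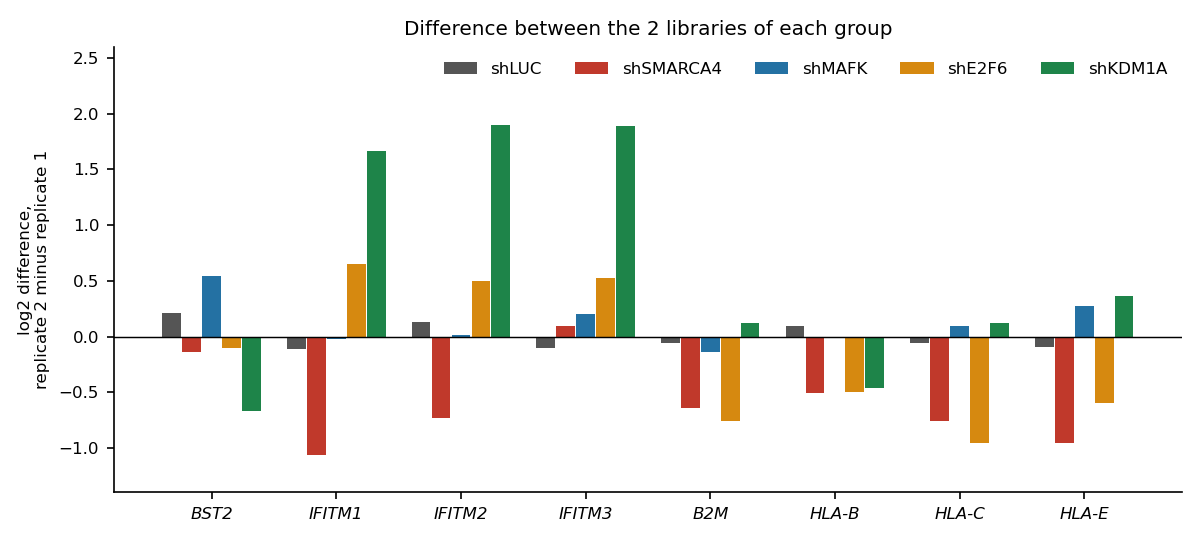
Log2 difference between the 2 libraries of each group (replicate 2 minus replicate 1, vertical axis) for the 8 genes, with 1 bar per group. The shKDM1A bars of IFITM1, IFITM2 and IFITM3 reach 1.67 to 1.90, and the shE2F6 bars of B2M, HLA-B, HLA-C and HLA-E all point down while those of the IFITM genes point up.

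B2M (chromosome 15, 44711487 to 44718877, plus strand) had 1770 and 1697 normalized tag counts in shLUC and 844 and 540 in shSMARCA4. It had 1780 and 1614 in shMAFK, and its values were 1461 and 864 in shE2F6 and 1701 and 1847 in shKDM1A. Both shSMARCA4 libraries were below all other libraries, the nearest of which was shE2F6 replicate 2. The log2 difference of shSMARCA4 from shLUC was -1.36 (SE 0.27), and that of shE2F6 was -0.62 (SE 0.27). The shE2F6 difference was -0.25 without its replicate 2.

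HLA-B and HLA-C lie on the minus strand of chromosome 6, at 31269491 to 31357188 and 31268749 to 31272130. HLA-B had 1885 and 2006 in shLUC and 940 and 658 in shSMARCA4. It had 2092 in both shMAFK libraries, while the shE2F6 pair was 1835 and 1300 and the shKDM1A pair 2530 and 1834. As with B2M, the shSMARCA4 libraries were the lowest 2 of the 10, and the log2 difference from shLUC was -1.30 (SE 0.24). HLA-C had 7919 and 7578 in shLUC and 5421 and 3208 in shSMARCA4. The shMAFK, shE2F6 and shKDM1A pairs for HLA-C were 8088 and 8630, 8223 and 4228, and 6490 and 7042. Its shSMARCA4 libraries were below the controls but overlapped shE2F6, whose replicates had a log2 difference of -0.96. The HLA-C log2 difference from shLUC was -0.89 (SE 0.31) in shSMARCA4, at -1.27 without replicate 1 and -0.51 without replicate 2. In shE2F6 it was -0.39, or 0.09 without replicate 2.

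HLA-E (chromosome 6, 30489467 to 30494205, plus strand) had 836 and 784 in shLUC and 1290 and 662 in shSMARCA4. The shMAFK, shE2F6 and shKDM1A pairs were 767 and 926, 818 and 540, and 714 and 914. Among the 8 genes HLA-E was the exception in shSMARCA4, because its libraries lay on either side of the controls. The log2 difference was 0.19 (SE 0.31), at -0.29 without shSMARCA4 replicate 1 and 0.67 without replicate 2. No neighbouring groups in the order of HLA-E levels were separate.

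Per kilobase of annotated exon, the control levels were 3620 for IFITM1, 3091 for HLA-C, 1840 for IFITM2, 1700 for IFITM3, 638 for HLA-B, 592 for BST2, 285 for B2M and 272 for HLA-E. IFITM1 and HLA-C were therefore the most abundant of the 8 in control cells on this scale. The annotated exons of B2M, 6079 bases in all, include transcripts longer than the main messenger RNA, which lowers its value per kilobase.

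**Figure D3:**
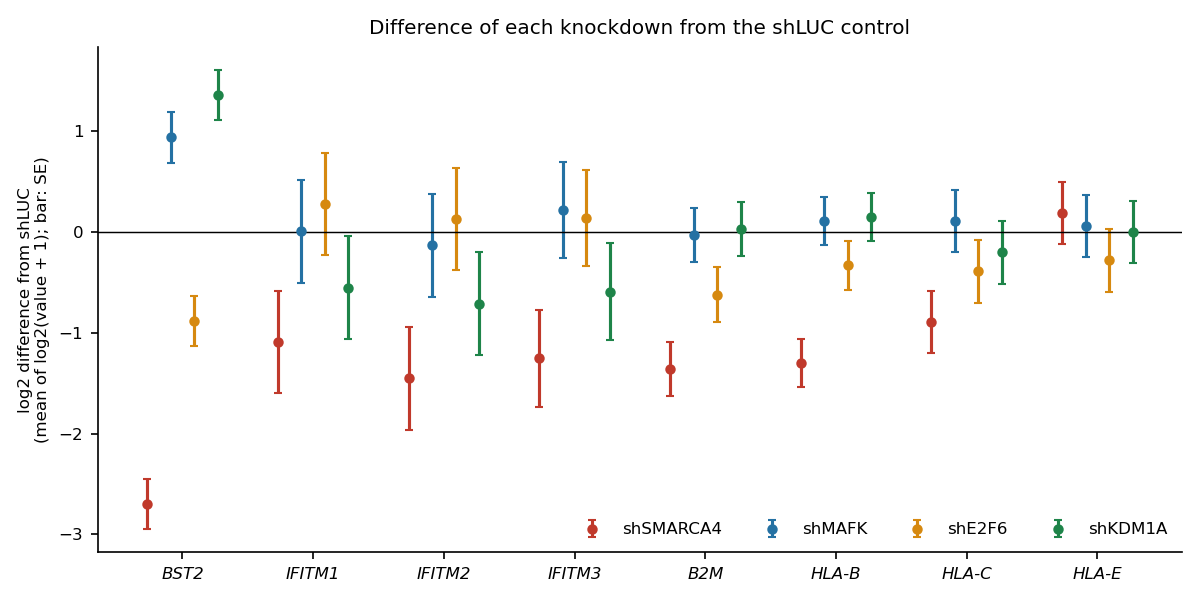
Log2 difference of each knockdown from shLUC (vertical axis, difference of means of log2(value + 1) over 2 libraries each) for the 8 genes, with bars of 1 SE from the fit over all rows. In shSMARCA4 the points lie from -2.70 for BST2 to 0.19 for HLA-E, and in the other knockdowns BST2 has the points furthest from 0, at -0.88, 0.94 and 1.36.

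The 8 genes had median log2 differences of -1.28, 0.08, -0.31 and -0.10 in shSMARCA4, shMAFK, shE2F6 and shKDM1A, where the medians over all rows were 0.01, -0.00, -0.00 and -0.02. Both libraries lay below both controls for 7 of the 8 genes in shSMARCA4. The separate genes were 1 lower and 4 higher in shMAFK, 3 lower in shE2F6, and HLA-C lower and BST2 higher in shKDM1A. A limma fit over all rows, with Benjamini-Hochberg adjustment and a threshold of 0.05 on the adjusted p, called 4.18% of rows in shSMARCA4 minus shLUC, 1.67% higher and 2.51% lower. BST2, B2M and HLA-B were among the lower calls. In shMAFK, shE2F6 and shKDM1A the fit called 0.0135%, 0% and 0.0271% of rows and 0 of the 8 genes. For shE2F6, 752 of the 14785 rows had an unadjusted p under 0.05. In shSMARCA4 minus the mean of the other 3 knockdowns, 8.70% of rows were called, 3.70% higher and 5.00% lower, and the same 3 genes were among the lower calls. Both shSMARCA4 libraries lay below all 6 libraries of the other knockdowns for 3 of the 8 genes, and for 9.77% of rows. Since the genes were picked with these comparisons known, nothing is read from the counts.

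Other genes of the interferon and class I pathways were counted over 5 lists. The lists were chosen with earlier results of these data known, so their shares of calls beside all rows are descriptions. Of 128 listed genes, 96 were in the table, whose rows all reached at least 80 in at least 2 libraries. In shSMARCA4 minus shLUC, 12 of the 96 passed the limma threshold, 5 higher and 7 lower (12.5%, beside 4.18% of all rows), and the median over the 96 was 0.01. The 2 lowest were the interferon-stimulated genes LGALS3BP and TRIM22, and the other calls were spread over all 5 lists in both directions. In shMAFK, shE2F6 and shKDM1A limma called 0 of the 96, and 11, 7 and 11 had an unadjusted p under 0.05. Of all 14785 rows, 1296, 752 and 1695 had an unadjusted p under 0.05 in these comparisons. A pair of libraries against another pair cannot reach an exact two-sided permutation p below 0.333, so these calls rest on the spread shared by the 5 groups. Left-out libraries mattered: LGALS3BP and TRIM22 passed in all 20 settings, and the other 10 genes missed the threshold whenever any 1 of the shLUC or shSMARCA4 libraries was left out.

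Among interferon-stimulated genes, 3 of the 25 measured passed in shSMARCA4, 2 lower and 1 higher, with a median of -0.05. LGALS3BP, a secreted glycoprotein that binds galectins, had 1071 and 1098 in shLUC, 38 and 66 in shSMARCA4 and 662 to 948 in the other knockdowns. It fell by 4.41 on the log2 scale (SE 0.24, limma adjusted p 1.08e-04). TRIM22, an antiviral member of the tripartite motif family, had 975 and 916 in shLUC and 128 and 126 in shSMARCA4. It fell by 2.89 (SE 0.25, limma adjusted p 7.82e-04). For BST2 the same difference was -2.70, so these 2 genes were at least as far below control as BST2 was. ZC3HAV1, which binds viral RNA rich in CpG, rose from 1323 and 1240 to 1920 and 2191, by 0.68 (SE 0.15, limma adjusted p 0.0440). ISG15, a ubiquitin-like modifier and a standard readout of interferon, had 191 and 170 in shLUC and 199 and 247 in shSMARCA4, and it did not pass the test. HERC5, an ISG15 ligase, and TRIM14, an adaptor in RNA sensing, were lower in shSMARCA4 than in the other 3 knockdowns, with log2 differences of -1.04 (limma adjusted p 0.0488) and -0.68 (limma adjusted p 0.0463). These calls were weak: HERC5 passed in 10 and TRIM14 in 9 of 20 settings, and both missed the threshold with no mean-variance trend, with only the groups compared and without any 1 of the shLUC, shMAFK or shSMARCA4 libraries.

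Of the other viral restriction factors, 3 of 12 passed in shSMARCA4 and all 3 were lower, with a median of -0.26 over the 12. SAMHD1, which depletes the nucleotides needed for reverse transcription, had 1680 and 1650 in shLUC and 868 and 978 in shSMARCA4, and it fell by 0.85 (SE 0.16, limma adjusted p 0.0220). APOBEC3B, a cytidine deaminase that acts on single-stranded DNA, fell by 0.99 (SE 0.22, limma adjusted p 0.0422), a call lost with the replicate number as a block and with no mean-variance trend. TRIM5, which binds incoming retroviral capsids, fell by 0.81 (SE 0.18, limma adjusted p 0.0407), a call also lost with no trend. TRIM5 was also below both controls in shMAFK (381 and 430) and shKDM1A (500 and 382), against 634 and 674 in shLUC.

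Class I antigen presentation had 2 of 21 genes past the threshold in shSMARCA4, both higher, with a median of 0.06. Both encode class I-like heavy chains that pair with B2M: CD1D, which presents lipids, and FCGRT, the neonatal Fc receptor. CD1D had 136 and 124 in shLUC and 538 and 402 in shSMARCA4, and it rose by 1.83 (SE 0.37, limma adjusted p 0.0278). FCGRT had 204 and 174 against 354 and 388, and it rose by 0.97 (SE 0.21, limma adjusted p 0.0389). They went in the direction opposite to B2M, HLA-B and HLA-C in the same libraries.

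The peptide supply genes TAP1, PSMB8 and PSMB9 did not pass against shLUC but did against the other 3 knockdowns. TAP1, a subunit of the peptide transporter, had 274 and 322 in shSMARCA4, 439 and 432 in shLUC and 404 to 558 in the other knockdowns. Its log2 difference from the mean of the other knockdowns was -0.63 (SE 0.12, limma adjusted p 0.0121). PSMB8 and PSMB9, catalytic subunits of the immunoproteasome, had log2 differences of -0.69 (SE 0.15, limma adjusted p 0.0231) and -1.12 (SE 0.26, limma adjusted p 0.0290) in that comparison. Against shLUC the values of TAP1, PSMB8 and PSMB9 were -0.55, -0.65 and -0.63. Over all 5 lists, 18 of the 96 genes passed against the other knockdowns, 6 higher and 12 lower, and the median was -0.06. This share of 18.8%, beside 8.70% of rows, is again a description. The 18 included all the genes called against shLUC except RELB and TRIM5, and both comparisons use the same shSMARCA4 libraries. JAK1, LGALS3BP and TRIM22 passed in all 20 settings of this comparison, and each of the others missed the threshold when some single library was left out.

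Receptors and signalling genes had 2 of 20 past the threshold in shSMARCA4, 1 in each direction, with a median of 0.00. JAK1, a kinase of both type I and type II interferon receptors, had 945 and 980 in shLUC and 1534 and 1636 in shSMARCA4. It rose by 0.72 (SE 0.14, limma adjusted p 0.0222). SOCS3, a feedback inhibitor of cytokine signalling, had 340 and 442 against 146 and 138, and it fell by 1.44 (SE 0.26, limma adjusted p 0.0179). The related inhibitor SOCS1 had 550 and 554 against 232 and 264, a difference of -1.15 from shLUC that did not pass, and its difference from the other knockdowns was -1.58 (SE 0.32, limma adjusted p 0.0170). STAT2 and the receptor chain IL10RB were higher than in the other knockdowns, by 0.55 (limma adjusted p 0.0252) and 0.85 (limma adjusted p 0.0378).

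Nucleic acid sensing and NF-kB genes had 2 of 18 past the threshold in shSMARCA4, 1 in each direction, with a median of 0.17. IKBKE, a kinase that phosphorylates IRF factors, had 129 and 131 in shLUC and 60 and 52 in shSMARCA4, and it fell by 1.20 (SE 0.28, limma adjusted p 0.0473). RELB, an NF-kB subunit, rose from 53 and 52 to 123 and 114, by 1.16 (SE 0.23, limma adjusted p 0.0251). RELB was above both controls in every knockdown library, at 88 to 142 outside shSMARCA4, and its difference from the other 3 knockdowns was -0.06. RELB was thus lowest in the control.

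**Figure D4:**
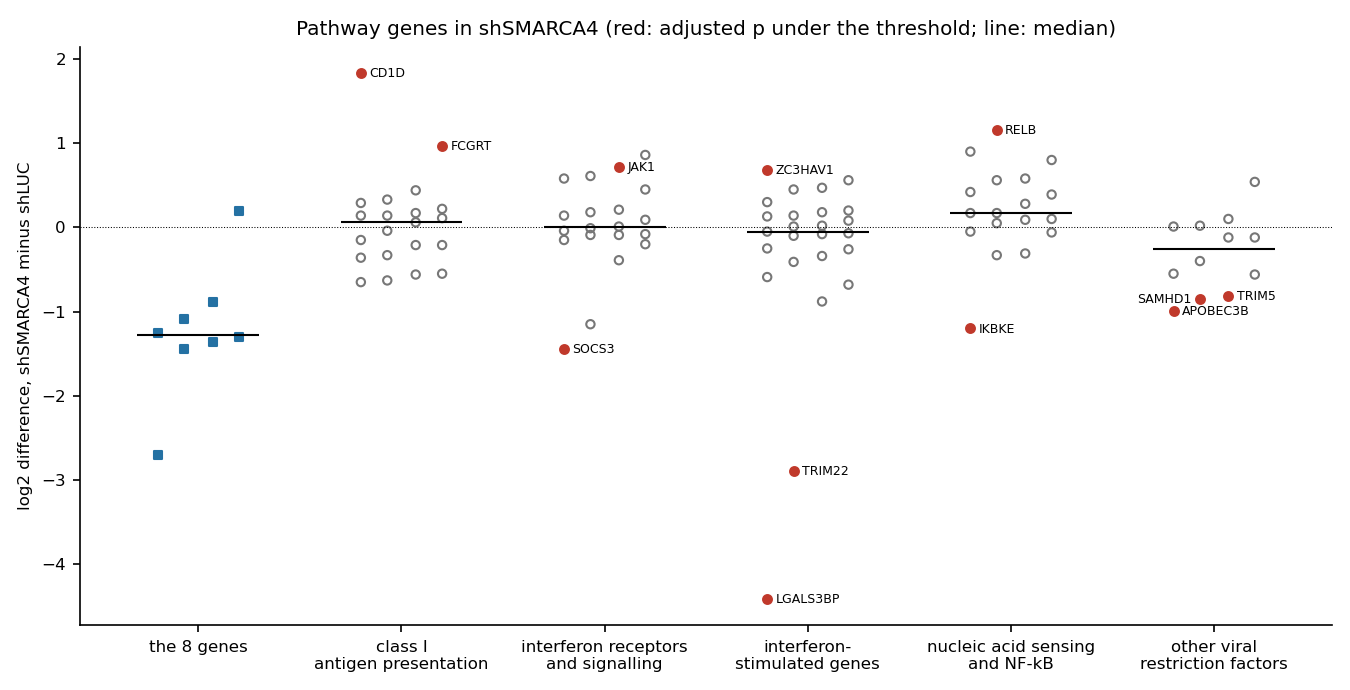
Log2 difference of shSMARCA4 from shLUC (vertical axis) for the 8 genes (blue squares) and the 96 measured genes of the 5 pathway lists (circles, each list a column). Red circles passed the limma adjusted p threshold of 0.05 and are named, and lines are medians; the medians of the lists lie between -0.26 and 0.17.

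**Figure D5:**
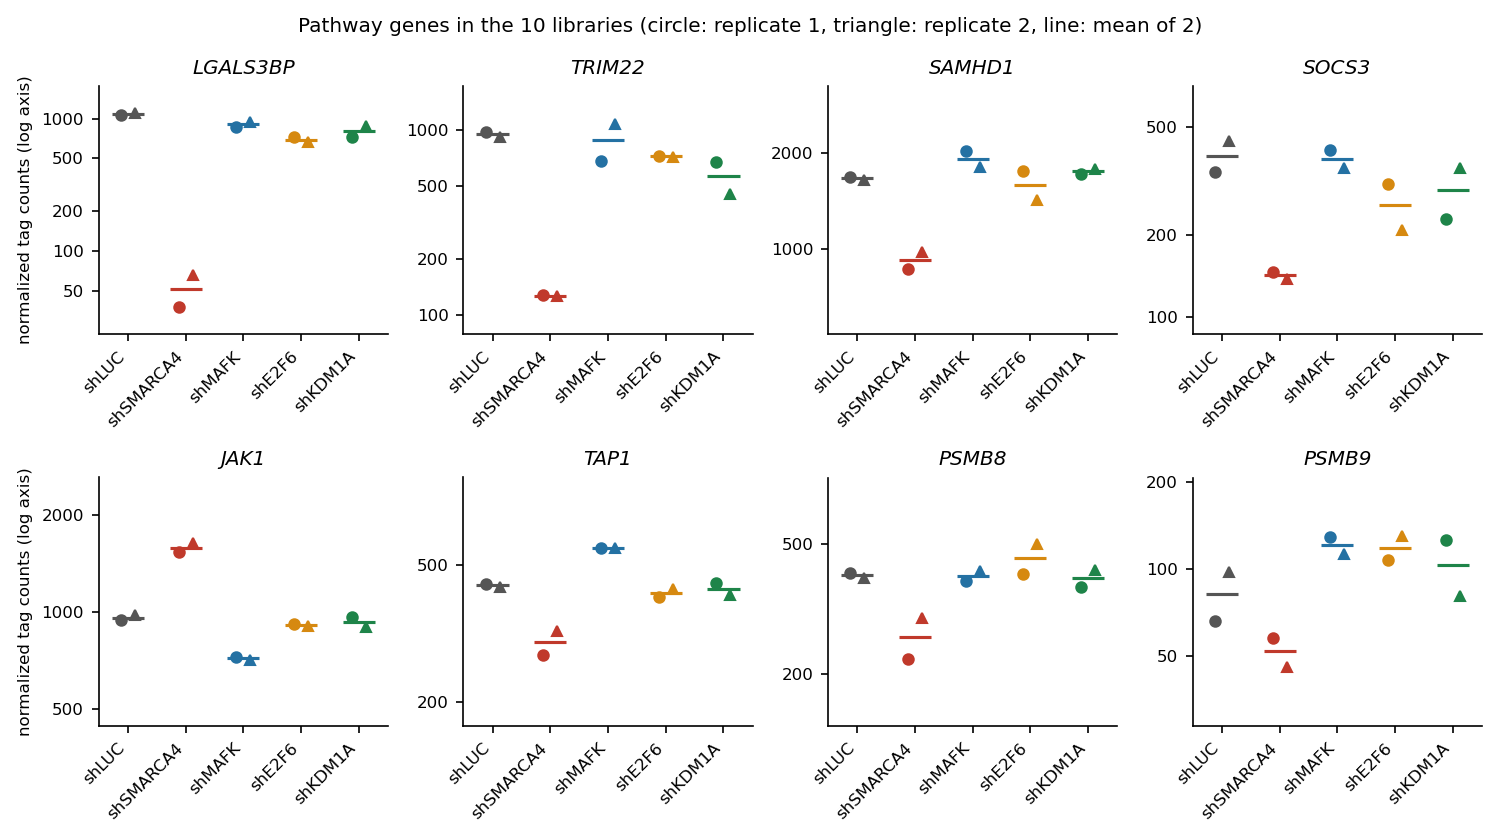
Normalized tag counts (vertical log axes) of 8 pathway genes in the 10 libraries of the 5 groups, drawn as circles for replicate 1, triangles for replicate 2 and lines for the mean. LGALS3BP and TRIM22 stand at 38 to 128 in the shSMARCA4 libraries, and JAK1 is above its level in every other library there.

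Other cell types' markers moved in shSMARCA4 beside these genes. The summed level of the 2 mesoderm markers in the table, of 7 listed, was 856 to 4239 in shSMARCA4, against 34 to 48 in shLUC. FOXA2, the only 1 of 7 endoderm markers in the table, was at 792 and 170 against 4 and 2. Every row of the table reached at least 80 in at least 2 libraries. The mesoderm markers MIXL1 and EOMES, and FOXA2, did so only in shSMARCA4. They could be in the table only with a higher level there, so nothing is read from that rise. The 4 mesenchymal markers of 8 summed to 5766 to 6878 against 14363 to 15700. Their log2 differences from shLUC were -2.70 for COL1A1 and -1.56 for THY1, but -0.18 for COL1A2 and -0.21 for POSTN. KRT7, the only 1 of 9 trophoblast markers, was at 30 to 44 against 218 to 296. CD74, the MHC class II invariant chain and the only 1 of 6 leukocyte markers, was at 400 to 516 against 676 to 816. Pluripotent markers summed to 148897 to 173894 against 179288 to 184611, but went in both directions. NANOG was higher (4613 and 3699 against 2512 and 2639). SOX2 (4426 and 4748 against 6408 and 6928) and LIN28A (30774 in both libraries against 41812) were lower. POU5F1, at 51684 and 21308, lay on either side of its control value of 35710. The 3 of 5 endothelial markers summed to 6731 to 6834 against 4972 to 5830, and 3 of 7 neuroectoderm markers to 4913 to 7071 against 5706 to 6661. These last 2 sums are mostly KDR and NES: within them TEK, at 366 and 313 in shLUC and 60 and 54 in shSMARCA4, fell by 2.55 (limma adjusted p 2.14e-04), and ZIC1 rose from 95 and 149 to 462 and 1004, by 2.51 (limma adjusted p 0.0147). No row of such a table can be at 0 in every library, and the listed markers outside it have no values here. The part of these cell types in the lower levels of BST2, the IFITM genes and class I was not tested.

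Within 100 kb, 25 other genes of the table were annotated, and limma called 0 of them in each of the 4 knockdowns against shLUC. In shSMARCA4, shMAFK, shE2F6 and shKDM1A, 2, 0, 1 and 1 of the 25 had an unadjusted p under 0.05. Of all 14785 rows, 2411, 1296, 752 and 1695 did, and the fit called 4.18%, 0.0135%, 0% and 0.0271%. BISPR, a long noncoding RNA on the opposite strand that starts 38 bases from BST2, had 103 and 114 in shLUC and 90 and 54 in shSMARCA4. Its libraries in shMAFK (148 and 127) were higher and those in shE2F6 (78 and 80) lower than the controls, as for BST2. Of all rows, 49.1% and 40.7% did not overlap the control in those knockdowns. In shKDM1A, where BST2 was highest, BISPR overlapped the controls, at 108 and 149. The log2 difference of BISPR in shSMARCA4 was -0.63 (limma adjusted p 0.343). MVB12A, which starts 74 bases away on the same strand as BISPR, had 620 and 652 in shLUC and 728 and 884 in shSMARCA4. ANO9, in the IFITM region, had the lowest value of the 25 in shSMARCA4, at -1.44 (limma adjusted p 0.0821). Against the mean of the other 3 knockdowns, 1 of the 25 passed, ANO9 at -1.72 (limma adjusted p 0.0110), and 3 had an unadjusted p under 0.05. Of all rows, 8.70% passed in that comparison, and 3289 of 14785 had an unadjusted p under 0.05.

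Across the 10 libraries the 8 genes fell into 3 patterns, described here by Pearson correlations of log2(value + 1). These also carry the group differences, the differences between replicates and the normalization. The IFITM genes followed one another at 0.91 to 0.98. B2M, HLA-B and HLA-C followed one another at 0.85 to 0.95. Their log2 differences of replicate 2 from replicate 1 were -0.64, -0.51 and -0.76 in shSMARCA4 and -0.76, -0.50 and -0.96 in shE2F6. BST2 was nearer to that set (0.70 to 0.92) than to the IFITM genes (0.27 to 0.38). HLA-E followed none of the others, at -0.17 to 0.40.

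Among 13759 genes compared, those most like BST2 over the 10 libraries were OPTN (0.985), AJUBA (0.979) and CCM2L (0.979). CCM2L, with 53 and 36 in shSMARCA4 and 216 and 156 in shKDM1A, was also among the 3 genes most like HLA-B. The genes most like B2M and HLA-C were CERK (0.976) and MKRN1 (0.973), and SNX5 (0.978) was most like HLA-B. For IFITM1 and IFITM2 each was the other's nearest gene (0.980), followed by AC093297.2 and FLNA. FLNA had the same value of 51691 in 7 of the 10 libraries and lower values in both shSMARCA4 libraries and shKDM1A replicate 1, so that likeness rests on 3 libraries. IFITM3 was most like CD24 (0.973), which also had 1 value, 30768, in those 7 libraries, and TRIM25 (0.973). The nearest gene to HLA-E, GATC, reached 0.927.

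Sequence shared between paralogs limits how far some values can be told apart. Of all 50-base words in the annotated transcripts, 32.0% of those of IFITM1, 34.3% of IFITM2 and 35.2% of IFITM3 also occur in transcripts of other genes. These were mostly of one another and, for IFITM3, also of the overlapping gene AC136475.5 (17.7%). For HLA-B, HLA-C and HLA-E the shares were 17.8%, 5.70% and 4.87%, with AL671883.2 as the main partner of HLA-B (15.1%), and for BST2 and B2M they were 0%. The annotated models of IFITM1 and IFITM2 overlap on the same strand, and so do those of HLA-B and HLA-C. How the authors assigned reads that fit several genes, and whether strand was used, is not given in the sources used here, so the IFITM1 to IFITM2 and HLA-B to HLA-C values may hold each other's reads. BST2 and B2M are free of that limit at this word length.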

How the data were processed

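RNA-seq of 10 libraries (5 groups of 2) was used. Per the submitters' processing notes, STAR, STARsolo and hg38 were used, with no roles given. The deposited values are treated as scores: whole numbers that the authors normalized, with 80.3% of ranks holding the same value in all libraries, so that library size and depth are not recoverable. Columns not mapped to a sample numbered 0. Groups came from sample titles.

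Values were analysed as log2(value + 1), which understates changes at low values. The minimum mean was 10, which all 14785 rows met. They entered 1 limma 3.58.1 fit (R 4.3.3; mean-variance trend, two-sided) of all 10 libraries with 5 residual degrees of freedom, tested on simulated data. Adjusted p-values are Benjamini-Hochberg over all rows, with a threshold of 0.05. P-values rest on the spread between libraries of the same group, pooled over the 5 groups and adjusted by the mean-variance trend. The design text calls those libraries biological duplicates, and part of that spread may still be technical.

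The 8 genes, the lists and the tests were chosen with earlier results of these data known. Named genes were the 8, the shRNA targets, list genes past the threshold or with the 2 largest differences of a list in shSMARCA4, genes within 100 kb, cell type markers, and the 3 most correlated genes (mean at least 50) of each of the 8. ISG15 was added after its values were seen. Positions are from GENCODE release 29. The fit was repeated under 19 other settings. Python 3.11.15, pandas 2.3.3 and matplotlib 3.10.9 made tables and plots.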

Additional observations from a re-analysis of the deposited data

How the results depend on the processing

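In shKDM1A the IFITM1, IFITM2 and IFITM3 differences of -0.55, -0.71 and -0.59 became -1.39, -1.66 and -1.54, past the threshold, without replicate 2, and 0.28, 0.24 and 0.36 without replicate 1, and the median of the 8 genes changed sign with them. No pathway gene past the threshold in shSMARCA4 reversed its direction. Without each library in turn, the median log2 difference of the 8 genes ran from -1.59 to -1.04 in shSMARCA4, 0.04 to 0.13 in shMAFK, -0.58 to -0.10 in shE2F6 and -0.22 to 0.21 in shKDM1A. The number of the 8 past the threshold ran from 1 to 5 in shSMARCA4 (1 without shLUC replicate 1, shLUC replicate 2 or shSMARCA4 replicate 2), and from 0 to 4 in shKDM1A (4 without replicate 2). It was 5 in shSMARCA4 when each group had its own weight, with only the groups compared and without both shKDM1A libraries, and 1 in shMAFK with weights.

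Pathway genes past the threshold numbered 12 in shSMARCA4, 19 with weights and 2 to 16 without single libraries (2 without any 1 of the shLUC or shSMARCA4 libraries, 5 without either shMAFK and 6 without either shE2F6 library). In shMAFK the 0 became 5 with weights, 1 with only the groups compared, 1 without both shKDM1A libraries and 0 to 1 without single libraries. In shE2F6 it became 1 with weights, and in shKDM1A 0 to 18 without single libraries (18 without replicate 2). Against the other 3 knockdowns the 18 became 4 to 29 without single libraries (29 without shKDM1A replicate 2, 10 without either shMAFK library, 4 and 7 without shSMARCA4 replicate 1 and 2).

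Of all rows, 618 passed in shSMARCA4. With weights it was 1306, without both shKDM1A libraries 1162, and without single libraries 89 to 1159. In shMAFK the 2 became 5 with quantile normalization, 5 with no trend, 487 with weights, 20 with only the groups compared, 34 without both shKDM1A libraries and 0 to 37 without single libraries. In shE2F6 the 0 became 21, 1 and 5 with weights, only the groups compared and no shKDM1A libraries, and 0 to 5 without single libraries. In shKDM1A the 4 became 9 with no trend, 2 with weights, 0 with only the groups compared and 1 to 3235 without single libraries (3235 without replicate 2). Against the other 3 knockdowns the 1286 became 436 to 3108. The cause was not tested.

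Replicate numbers were not shown to pair the libraries: 2 of 10 pairs of groups had a correlation of deviations over 0.1, the highest 0.337 for shE2F6 and shSMARCA4. With the replicate block, 1 row passed in shMAFK instead of 2, APOBEC3B in shSMARCA4 lost its call, and the other counts of the pathway genes and of the 8 genes kept within 1.5 times. Without 1 library of a group, the lone library was assumed to vary like the others. Rescaling moved the median of all rows by at most 0.02. Depth is unknown, so no limit from counting can be given.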
